A study of Mus musculus with 10 samples.

Results

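Among the gene IDs counted in mouse cortex, 470 held reads although their exons lay opposite no gene, and each began within 5 kb beyond the 3′ end of a gene on the other strand. They were chosen by position and by count. The exons of the ID overlap no gene body on the other strand in GENCODE M21 (build GRCm38), the nearest exon lies within 5 kb downstream of the 3′ end of an opposite-strand gene, the mean count over the 10 libraries is 5 or more, and the ID is not within 5 Mb of Stip1 on chromosome 19. Of the 53090 IDs in the count tables, 4343 had a mean count of 5 or more, and 470 of these met the rule. The counts themselves chose the members, so how many were counted and how strongly is given below as a description. Here such IDs are called members, and the opposite-strand gene that ends before each of them is called its upstream gene.

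The libraries came from a small piece of cortex, dissected from 1 hemisphere of each of 10 C57BL/6 mice. They compare 5 wild-type animals (wt/wt, 442 to 663 days old, 589.6 ± 90.8 days, SD) with 5 animals homozygous for a Stip1 allele without the TPR1 domain (dTPR/dTPR, 541 to 630 days old, 592.6 ± 33.5 days, SD). STI1, the product of Stip1, is a co-chaperone that passes client proteins from HSP70 to HSP90, and the TPR1 domain holds a site for HSP70. The labels name no Cre, promoter or pooling, and do not say whether the animals were littermates, so p-values measure the spread between these 10 animals.

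RNA polymerase II does not stop at the end of a gene. It transcribes past the polyadenylation signal, usually AATAAA or ATTAAA, where the transcript is cut and given its poly(A) tail, and the polymerase is released further downstream. Transcripts can also be cut at several sites, and neurons are known for using distal sites that give long 3′ ends. Where 2 genes point towards each other, reads from beyond the end of one lie on the strand opposite to the other, and a count that is taken on the opposite strand books them under the neighbour's name.

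The counts of these libraries lay for the most part opposite to the annotated genes. Of all counts, 94.2% lay at IDs opposed by an exon of another gene. IDs opposed by introns alone held 0.861%, and IDs that face no gene body held 4.29%. The name of a member is therefore used below as the name of a place and not of a transcript, and what was transcribed there was not tested. Library totals ran from 667751 to 927242 counts. The ID of Stip1 held 0 to 8 counts per library and faces no gene body, and no ID faces Stip1, so the counts give no check of the deletion. Neurod1, a marker of cortical excitatory neurons that an ID faces, lay between 73.6 and 442 CPM (counts scaled to library totals of equal size) in wild type and between 129 and 420 CPM in dTPR/dTPR libraries. Striatal marker levels differed between animals, and whether the dissected piece itself differed was not tested. The 4 striatal markers that an ID faces, of 15 in the list (Penk, Ppp1r1b, Rarb and Syndig1l), summed to between 803 and 5306 CPM in wild type and between 388 and 2189 CPM in dTPR/dTPR libraries, highest in wild-type animals 3 and 2.

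The last 30 bases of 7 upstream genes are printed here, as GENCODE M21 transcripts give them, because the most counted members and those in the genotype comparison lie just beyond these ends. Each is written 5′ to 3′ on the strand of the upstream gene in build GRCm38, and capitals mark an AATAAA or ATTAAA signal. The first, Cnksr2, ends 1067 bases before Klhl34 (chrX:157821436-157821465, minus strand). Pld3 ends 825 bases before Hipk4 (chr7:27532000-27532029, minus), Rtl8c 436 bases before Gm14597 (chrX:53608403-53608432, plus), Nrgn 287 bases before Vsig2 (chr9:37544492-37544521, minus), and C1ql3 2 bases before Pter (chr2:13003457-13003486, minus). Chrm4 ends 1117 bases before Mdk (chr2:91928659-91928688, plus) and Gnb4 1093 bases before Mfn1 (chr3:32580332-32580361, minus).
Cnksr2: gtaaactgaagtcaAATAAAtccagctctt
Pld3: taattgtctgtatagcctgtgcttaactga
Rtl8c: ctggggcaggggctacaagagggtgagctg
Nrgn: gtgaatAATAAAgaggaatgtctaagtgta
C1ql3: atttctccaatagaatacatttagactctc
Chrm4: cagtatcggaacatcggcacagccaggtag
Gnb4: actgtaatcAATAAAgtgcttttcaccatg
Cnksr2, Nrgn and Gnb4 carry AATAAA near the annotated end. Pld3, Rtl8c, C1ql3 and Chrm4 have neither signal in their last 50 bases, and the annotated Chrm4 transcript ends with its stop codon.

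Among IDs that face no gene body, those just beyond the end of an opposite-strand gene were counted more often than those in the other positions examined. Of 961 nuclear IDs that began within 500 bases downstream, 149 (15.5%) had a mean count of 5 or more. The share was 7.81% (58 of 743) from 500 to 1000 bases, 7.51% (101 of 1344) from 1 to 2 kb and 5.40% (152 of 2816) from 2 to 5 kb, and beyond the limit of the rule it was 3.62% from 5 to 10 kb and 2.14% from 10 to 20 kb. On the other side, upstream of the start of an opposite-strand gene, 2.25% of 2574 IDs within 5 kb were counted at that level. Within 5 kb downstream of a gene on the same strand the share was 1.30% of 3395. Both of these sets leave out IDs within 20 kb downstream of an opposite-strand gene. The downstream sets had no matching exclusion and keep IDs that also lie near the start of another gene, so the shares are not fully alike. Where no opposite-strand gene lay within 20 kb the share was 0.640% of 17979. Density fell with distance as well: 1.69 counts per kb of exon in the first 500 bases downstream, 0.502 from 2 to 5 kb and 0.231 from 10 to 20 kb, beside 0.196 within 5 kb upstream and 0.0945 far from any opposite-strand gene. Since the count is part of the rule, these shares are a description and carry no test.

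**Figure D1:**
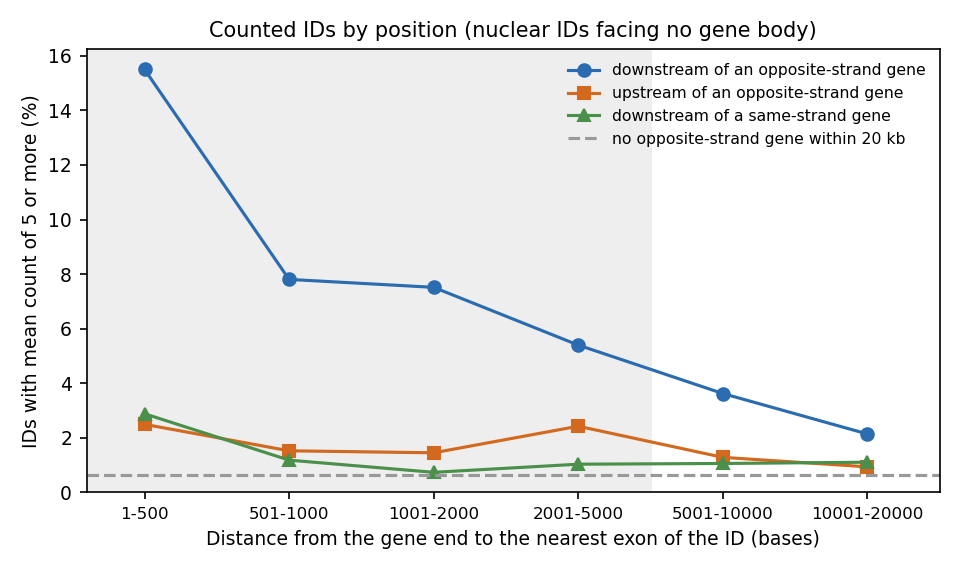
Share of nuclear IDs with a mean count of 5 or more (y axis, percent) by the distance from a gene end to the nearest exon of the ID (x axis, bases), for IDs that face no gene body. Points are bins, the grey band covers the 5 kb of the rule and the dashed line is the 0.640% of IDs with no opposite-strand gene within 20 kb. The share downstream of opposite-strand genes is 15.5% in the first bin and 2.14% in the last. The upstream and same-strand points leave out IDs within 20 kb downstream of an opposite-strand gene, and the downstream points have no matching exclusion.

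Most IDs in the position were nonetheless silent. Of 5891 IDs placed as the rule asks, whatever their count, 3675 (62.4%) had 0 counts in all libraries and 470 (7.98%) became members, after 11 had been removed for their distance to Stip1. The limits of the rule cut through a continuum. At the count limit, 10 members had a mean of exactly 5.0, among them Clock and Usp5, and 9 IDs just outside had 4.9, among them Appl1 and Clstn1. At the distance limit, the farthest member was Ppdpf, 4950 bases beyond Ptk6 with a mean count of 16.2, and the nearest ID outside was Ccdc27, 5126 bases beyond Lrrc47 with 12.9.

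Members were mostly low. The median mean count of the nuclear members was 11.8 (quartiles 7.20 and 21.6), and 240 of the 470 (51.1%) were counted in all 10 libraries. Of the 185 members with a mean between 5 and 10, 168 (90.8%) were at 0 in at least 1 library. The median distance to the upstream gene was 1095 bases. Member IDs belonged to protein-coding genes in 421 cases (89.6%), and so did the upstream genes of 364 members (77.4%). The members had 456 different upstream genes, so a few share one, such as Snord91a and Gm22771 beyond Srr, and are not independent of each other in position. In 44 cases the upstream gene lay inside the span of the member, between its exons.

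A few places held much of the signal. The 10 mitochondrial members took 25.2% of the counts of all members, led by the transfer RNA genes mt-Te (mean count 2249.9, 506 bases beyond mt-Nd5), mt-Tp (1791.2, 1 base beyond mt-Tt) and mt-Ta (789.1, 2 bases beyond mt-Tw). Mitochondrial genes are transcribed as one long RNA from each strand and cut afterwards, so a neighbour on the other strand is always near and these members are kept apart. Of the counts of the 460 nuclear members, 33.7% lay at 5 IDs.

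Klhl34 (ENSMUSG00000047485, chrX:157818435-157820369, plus strand), an ID named for a kelch-like protein, was the most counted nuclear member. It lies beyond Cnksr2, which encodes a scaffold of Ras signalling at synapses. Its counts were 1408, 1836, 1274, 2610 and 2806 in wild-type animals 1 to 5, and 2405, 641, 2170, 3204 and 2110 in dTPR/dTPR animals 1 to 5. The groups overlapped throughout, and dTPR/dTPR animal 2 stood lowest. Hipk4 (chr7:27523267-27531175, plus), beyond the phospholipase D family gene Pld3, had 1130, 1203, 1489, 1364 and 1751 counts in wild type and 1317, 580, 1522, 1482 and 1312 in dTPR/dTPR. Again the lowest library was dTPR/dTPR animal 2. Gm14597 (chrX:53577087-53608979, minus), beyond the retrotransposon-derived gene Rtl8c, had 1086, 1830, 1128, 1018 and 1226 counts in wild type and 730, 1934, 1231, 1339 and 1123 in dTPR/dTPR. In this member dTPR/dTPR animal 2 was the highest.

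Vsig2 (chr9:37539255-37544205, plus) lies beyond Nrgn, the gene of neurogranin, a postsynaptic calmodulin-binding protein of forebrain neurons. It had 250, 313, 184, 475 and 495 counts in wild type and 525, 45, 602, 570 and 482 in dTPR/dTPR, so that animal 2 of the dTPR/dTPR group, at 64.5 CPM, was far below the other 4 of its group, which lay between 617 and 873 CPM. Pter, beyond the synaptic C1q-like gene C1ql3, was also lowest in that animal, at 87.5 CPM. Among the 24 nuclear members with a mean count of 100 or more, dTPR/dTPR animal 2 was the lowest library in 7 and the highest in 1. Among the 127 with a mean count of 20 or more it was the lowest in 23 and the highest in 14, and the other libraries were lowest in 7 to 17 and highest in 6 to 20 each.

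Further down, Zfp574, beyond the transcription factor gene Pou2f2 at 3852 bases, had a mean count of 274.1, and Evpl, 272 bases beyond the pseudogene Cdk3-ps, had 264.8. Gm42741, beyond Gm42738, had 242.6, and Snord91a, a small nucleolar RNA gene 843 bases beyond the serine racemase gene Srr, had 227.2. Among members with a mean count of 20 or more, mt-Tp and Pdcd4 (1 base beyond Bbip1, mean count 37.3) were the closest to their upstream gene. Cfb (2 bases beyond Nelfe, 26.6) was as close as Pter and mt-Ta, also at 2 bases. The farthest were Akt1 (4672 bases beyond Siva1, 21.9), Serpinf1 (4064 bases beyond Smyd4, 20.1) and Orc3 (3888 bases beyond Akirin2, 76.4).

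**Figure D2:**
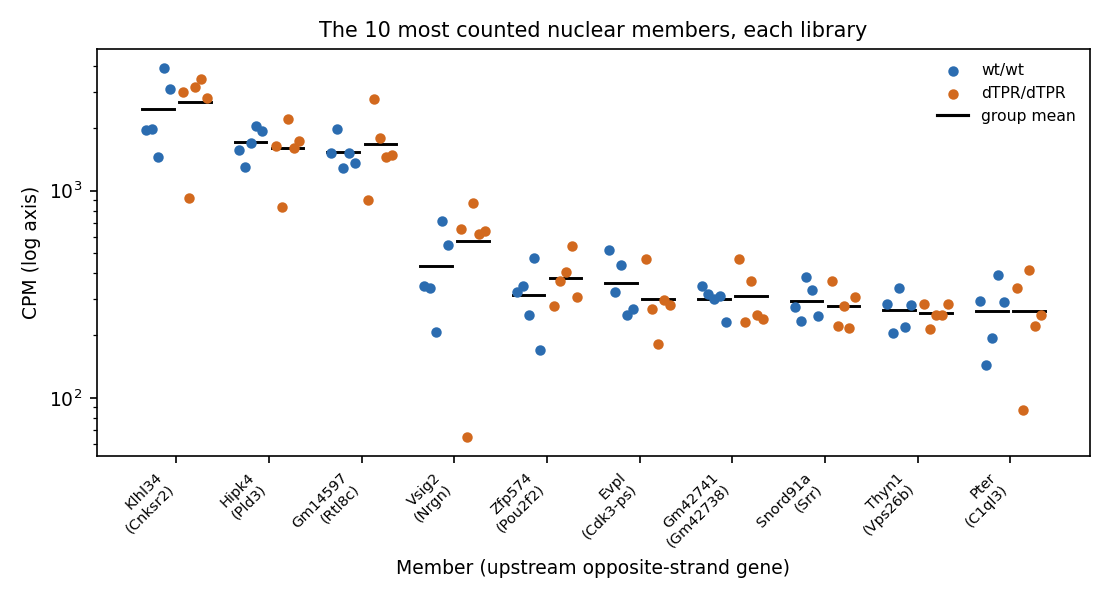
CPM (y axis, log scale) of the 10 nuclear members with the highest mean count, each named with its upstream gene in parentheses. Points are libraries, wt/wt in blue and dTPR/dTPR in orange, 5 each, and black lines are group means. Vsig2 runs from 64.5 to 873 CPM, both ends in the dTPR/dTPR group.

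In 23 places the relation went both ways, with 2 members that point at each other and are each other's upstream gene. These 46 members had mean counts from 5.0 to 192.9. Slc30a2, a zinc transporter gene, and Extl1, a glycosyltransferase gene, are 1888 bases apart and had mean counts of 192.9 and 90.8. Their counts were 257, 176, 150, 250 and 229 for Slc30a2 in wild type with 180, 44, 197, 242 and 204 in dTPR/dTPR, and 109, 25, 49, 93 and 136 for Extl1 in wild type with 82, 40, 112, 190 and 72 in dTPR/dTPR. Both were present in every library. Ddx42 and Ftsj3, an RNA helicase gene and a ribosomal RNA methyltransferase gene 3 bases apart, had 110.4 and 21.7. These 4 genes were chosen after their values were seen.

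The annotation was compared for where the upstream genes end. This comparison was added after the data were examined and is descriptive. In RefSeq (build GRCm38.p6) the upstream gene was found for 391 of the 460 nuclear members. For 51 of these (13.0%) it runs on far enough to reach the member. Here and below, an upstream gene shared by several members counts once for each. Among members with a protein-coding upstream gene the share was 12.3% (43 of 351). It was 2.49% (70 of 2810) for IDs within the same 5 kb that stayed under the count minimum and 1.72% for those with 0 counts. These sets were not matched for distance, and a near ID needs a shorter extension. Among the members the share was 17.9% within 500 bases and 7.84% from 2 to 5 kb. An end at least 100 bases further downstream in RefSeq was found for 18.5% of the protein-coding upstream genes of members and for 7.05% of those of IDs under the minimum. Both Mdk and Mfn1 are among the 51. RefSeq carries Chrm4 1147 bases past the GENCODE end, and Mdk lies at 1117 bases, so the longer model only just enters Mdk. It carries Gnb4 1745 bases further, and Mfn1 lies at 1093 bases. C1ql3 runs 1570 bases further and Rtl8c 703. Itgbl1, 2289 bases beyond Fgf14, is reached by an extension of 3466 bases, and Thyn1, 435 bases beyond Vps26b, by one of 3269.

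The larger part of the counts lay at members that these longer models do not reach. The 51 reached members held 23.4% of nuclear member counts with a median mean count of 23.1, and the 340 that are not reached held 66.9% with a median of 11.8. Some reached members are only touched: Ddx42 lies 3 bases beyond Ftsj3, which RefSeq extends by 4. The share of counts that lies inside the longer models was not measured. For Klhl34 the RefSeq end of Cnksr2 lies only 6 bases further, for Vsig2 that of Nrgn lies 1 base short of the GENCODE end (-1), and for Hipk4 that of Pld3 lies 633 bases further, short of the 825 bases needed. Polyadenylation signals were searched on the strand of the upstream gene in its last 50 bases. For the 362 nuclear members with a protein-coding upstream gene, AATAAA was present in 51.9%, ATTAAA without it in 15.2% and neither in 32.9%. For IDs under the minimum the shares were 61.4%, 12.6% and 26.0%, and over all protein-coding genes 59.1%, 12.8% and 28.0%. A missing match says only that these letters are not in that window, and the bases between the genes were not searched here.

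For some members an ID faces the upstream gene, in whole or in part, and both could be followed across the 10 libraries. Whole counts of the facing IDs were used, also of their bases that do not lie opposite the upstream gene. Of the 90 such members, 52 had a mean count of 5 or more on the facing side. Counts per kb of exon at the member were set against the facing counts per kb of bases opposite exons of the upstream gene. Over 50 nuclear members the median was 5.25%, with a range from 0.0356% to 180%. Because whole counts were divided by the opposed bases alone, this percentage is not relative to the density opposite the body. It comes out lower where a facing ID lies only partly opposite the gene. Log2 CPM of the 2 sides was correlated over all 10 libraries, with p from a permutation test with 100000 resamples, two-sided, adjusted over the 52 pairs. One pair passed the threshold, 1.92% of the pairs, and 4 had an unadjusted p under 0.05, 7.69%.

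Pter and the IDs that face its upstream gene C1ql3 rose and fell together. C1ql3 encodes a secreted protein that organises synapses, and it is faced by the IDs Gm37811 and Gm37824. Summed counts of these facing IDs were 329, 148, 206, 398 and 381 in wild type and 505, 109, 371, 362 and 179 in dTPR/dTPR. Counts at Pter were 210, 133, 172, 260 and 262 in wild type and 272, 61, 286, 205 and 191 in dTPR/dTPR. In CPM the same 3 libraries, dTPR/dTPR animal 2 and wild-type animals 2 and 3, were the lowest on both sides. Pearson's r was 0.904 (permutation p = 0.00013, adjusted p = 0.0068) and Spearman's rho 0.939 (permutation p = 0.00024, adjusted p = 0.0125). Without the 2 libraries farthest from the median r was 0.827, and with values centred within genotype it was 0.908. The nearest exon of Pter begins 2 bases beyond the annotated end, and the RefSeq model of C1ql3 reaches it.

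The other pairs did not pass. Krt20 and the ID Krt12, which faces A830036E02Rik, gave r = 0.956 (permutation p = 0.043, adjusted p = 0.535), but this rests on dTPR/dTPR animal 2, where Krt20 had 7 counts against 92 to 136 in the others and Krt12 had 128 against 645 to 1257. Without the 2 farthest libraries r was 0.132, and rho over all 10 was 0.345 (permutation p = 0.331, adjusted p = 0.740). The ID 1700001K19Rik, 743 bases beyond the dynein heavy chain gene Dync1h1, ran against the 2 IDs that face that gene (r = -0.681, permutation p = 0.033, adjusted p = 0.535). It gave rho = -0.733 (permutation p = 0.021, adjusted p = 0.267) and r = -0.678 without the 2 farthest libraries. The member mt-Te was paired with the ID mt-Nd6, which was assigned to mt-Nd5. The whole count of mt-Nd6 was used and not only its bases opposite mt-Nd5, so this pair does not isolate the body of mt-Nd5. Pearson's r was 0.731 (permutation p = 0.017, adjusted p = 0.449) and rho 0.685 (permutation p = 0.034, adjusted p = 0.359). Without the 2 farthest libraries r was 0.414. Snrnp35, beyond Rilpl1, had r = 0.509 and Proz, beyond Pcid2, had r = 0.398, with adjusted permutation p-values of 0.535 and 0.740.

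Over all 52 pairs r had a median of 0.008 and was above 0 in 26. When each member was set against the facing IDs of the other members' upstream genes, 2652 combinations over the same libraries, the median was -0.016. In the 11 pairs with a mean count of 20 or more on both sides the median was 0.398 and 9 were above 0, and over their 110 other combinations the median was -0.003. These 11 include mt-Te. The 10 nuclear pairs among them had a median of 0.365 with 8 above 0, and their 90 other combinations a median of 0.034. Over all 50 nuclear pairs the median was -0.001. These pairs and combinations share libraries, so the medians are descriptions without a test.

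**Figure D3:**
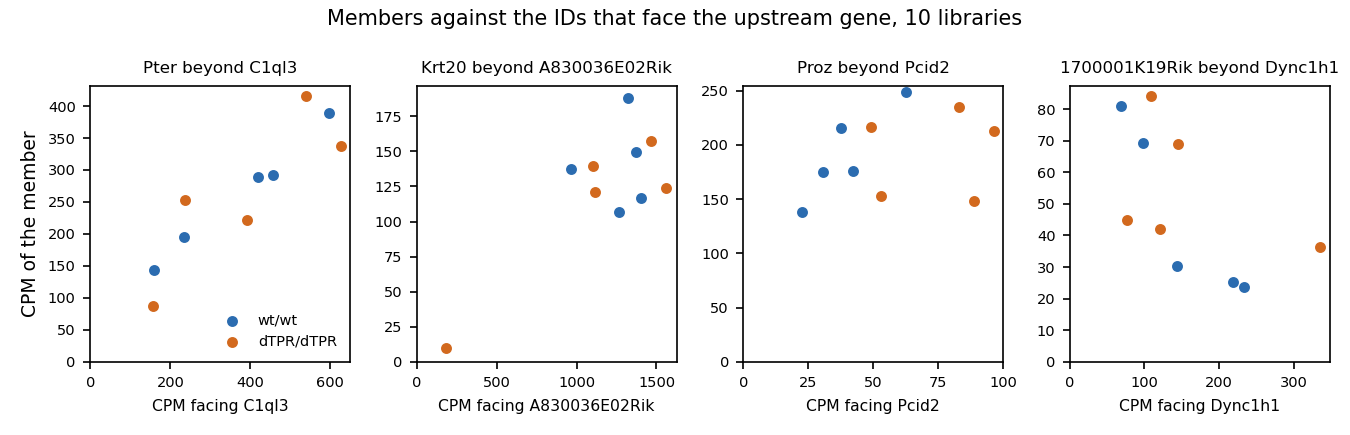
CPM of 4 members (y axis) against the summed CPM of the IDs that face their upstream gene (x axis), 1 point per library, wt/wt in blue and dTPR/dTPR in orange. The axes show CPM, and each r given here is of log2 CPM. Pter rises with the IDs facing C1ql3 over all 10 libraries (r = 0.904). The Krt20 panel has 9 libraries in 1 cloud and dTPR/dTPR animal 2 alone near the origin. Proz has r = 0.398 and 1700001K19Rik r = -0.681.

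The genotype comparison asks which counts differ when STI1 lacks its TPR1 domain, and it called no member. The edgeR quasi-likelihood test was fitted on all 3027 IDs that passed its filter, of which 282 were members, and the other 188 members were too low. No ID had a Benjamini-Hochberg adjusted p under 0.05 (0 members, and 0% of all tested), and the smallest adjusted p of a member was 0.997. Before adjustment 4 members (1.42% of 282) lay under 0.05, 1 higher and 3 lower in dTPR/dTPR, beside 2.54% of all tested IDs (77 of 3027, 1.19% higher and 1.35% lower). DESeq2 called 0 members and had 13 of 470 under 0.05 before adjustment. Its background was 1.94% of 14395 IDs, which include IDs with lower counts than any member, so the shares are not fully alike. With limma-voom and quality weights 0 were called and 6 of 282 lay under 0.05 (background 4.13% of 3027). With all 470 members in the fit, at a mean count of 5 or more, 0 were called and 7 had an unadjusted p under 0.05, 1 of them higher and 6 lower, where 2.33% of the 4343 IDs lay (1.15% higher and 1.17% lower). Zfp791, Mydgf and Psmf1 are the 3 added there, each with 3 or fewer counts in at least 3 of the dTPR/dTPR libraries.

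The fold changes of members centred on no change. Their median log2 fold change (dTPR/dTPR over wild type) was 0.01, that of all tested IDs 0.02. It was above 0 in 143 of 282 members and in 52.1% of all tested IDs, and 90% of the members lay between -0.95 and 0.94 where 90% of all tested IDs lay between -0.79 and 0.82. The median SE was 0.63 for members and 0.47 for all tested IDs. The biological coefficient of variation of the fit was 0.503. On simulated counts of 2688 IDs with the same spread, the fit called 20 of 64 changed 2-fold and 42 of 55 changed 4-fold, so most 2-fold changes were not called in that simulation. The simulated IDs were not split by count.

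**Figure D4:**
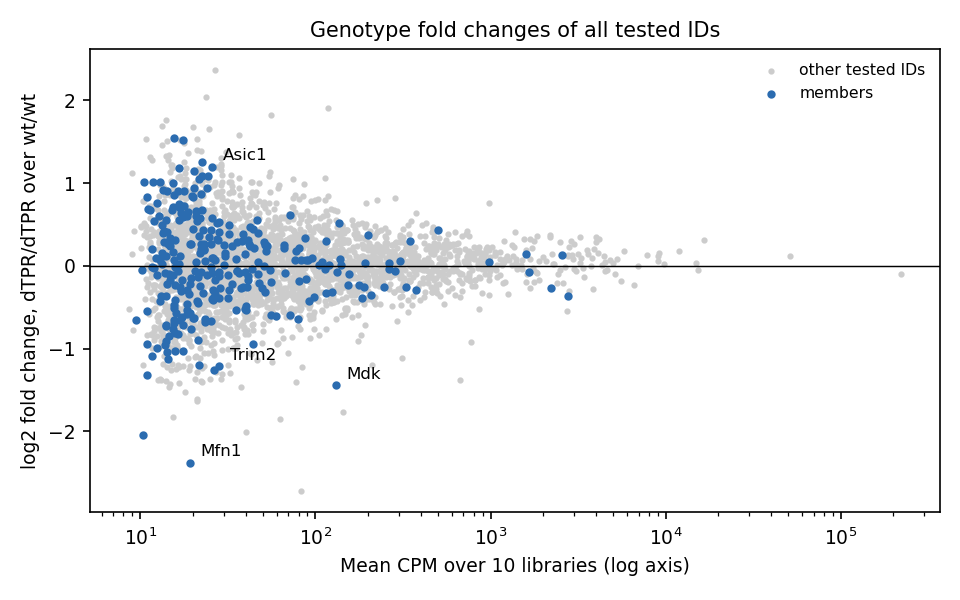
Log2 fold change, dTPR/dTPR over wt/wt (y axis), against the mean CPM over 10 libraries (x axis, log scale) for the 3027 tested IDs, members in blue and all others in grey. Points spread more at low CPM in both sets, and the 4 members named are those with an unadjusted p under 0.05.

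Mdk (ENSMUSG00000027239, chr2:91929805-91932297, minus), the ID of the growth factor midkine, lies beyond Chrm4, which encodes the muscarinic acetylcholine receptor M4, a receptor found mainly on striatal projection neurons. Mdk had 88, 249, 337, 89 and 49 counts in wild type and 87, 35, 28, 67 and 63 in dTPR/dTPR. Wild-type animals 3 and 2 were the highest, animals 1 and 4 lay just above the dTPR/dTPR libraries in CPM, and animal 5 lay among them. The means were 192 ± 132 CPM and 70.9 ± 26.7 CPM (SD, n = 5 each), a log2 fold change of -1.44 ± 0.45 (SE) with an adjusted p of 0.997 by edgeR. Animals 3 and 2 were also those with the highest striatal markers, at a mean log2 CPM of 10.33 and 9.71, and the other wild-type animals had 9.25, 7.74 and 7.53. The dTPR/dTPR animals had 7.55, 8.61, 7.65, 6.21 and 8.65. Adjusted for the striatal level, Mdk had a log2 fold change of -0.62. With wild-type animals 2 and 3 left out together the value was -0.49. What part the striatal content has in the result was not tested. Without a filter on low counts Mdk was the 1 member called, in a fit that called 2 of 14428 IDs (0.0139%). Before adjustment 9.01% of these IDs and 6 of 470 members lay under 0.05, and the IDs include ones with lower counts than any member.

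Mfn1 (ENSMUSG00000027668, chr3:32529465-32579239, plus), the ID of the mitochondrial fusion protein mitofusin 1, lies beyond Gnb4, a G-protein beta subunit gene. It had 20, 12, 56, 21 and 24 counts in wild type and 3, 15, 0, 5 and 0 in dTPR/dTPR. Animal 2 was the highest dTPR/dTPR library and passed the lowest wild-type library, so the groups overlapped by that 1 library. The means were 32.4 ± 18.7 and 6.13 ± 8.92 CPM (SD, n = 5 each), and the log2 fold change was -2.38 ± 0.88 (SE), adjusted p = 0.997 by edgeR. Without dTPR/dTPR animal 2 it was -3.67, and adjusted for the striatal level it was -1.98.

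Trim2, the ID of a neuronal ubiquitin ligase, is a member through Gm6525, a gene that lies inside its span 2119 bases from its nearest exon. It had 21, 27, 53, 19 and 46 counts in wild type and 20, 4, 12, 14 and 16 in dTPR/dTPR, with a log2 fold change of -1.21 ± 0.51 (SE, adjusted p = 0.997 by edgeR). In CPM its groups did not overlap. Asic1, the ID of an acid-sensing ion channel 1046 bases beyond Gm17349, had 13, 13, 13, 9 and 16 counts in wild type and 57, 10, 15, 25 and 34 in dTPR/dTPR. The wild-type libraries were close together, dTPR/dTPR animal 2 lay among them in CPM and the other 4 lay above, at a log2 fold change of 1.20 ± 0.53 (SE, adjusted p = 0.997 by edgeR).

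Groups that did not overlap in CPM were found for 13 of the 3027 tested IDs (0.429%), and 2 of these were members, Trim2 (lower, as were 0.165% of all) and Ppt2 (higher, as were 0.264%). Ppt2, the ID of a lysosomal thioesterase 3213 bases beyond Agpat1, had 190, 206, 191, 193 and 94.8 CPM in wild type and 240, 238, 221, 221 and 213 CPM in dTPR/dTPR, a log2 fold change of 0.38 ± 0.22 (SE). Wild-type animal 5 was the low one, and without it the fold change was 0.20. At a mean count of 5 or more Pou6f1 (higher) was added, with 2, 1, 4, 0 and 1 counts in wild type and 5, 15, 5, 12 and 5 in dTPR/dTPR, where 0.553% of the 4343 IDs had groups without overlap (0.345% higher and 0.207% lower).

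Another 4 of the 10 members with the smallest p had unadjusted p-values from 0.055 to 0.070. Gm26917, 12 bases beyond a ribosomal RNA gene, had a log2 fold change of -0.65 ± 0.34 (SE). Mroh2a, beyond Hjurp, had 0.51 ± 0.25, Galr2, a galanin receptor ID beyond the exocyst gene Exoc7, had 1.05 ± 0.54, and Srpk3, 38 bases beyond Idh3g, had 1.52 ± 0.79. They are ranked here by the comparison itself and none passed the adjusted threshold.

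**Figure D5:**
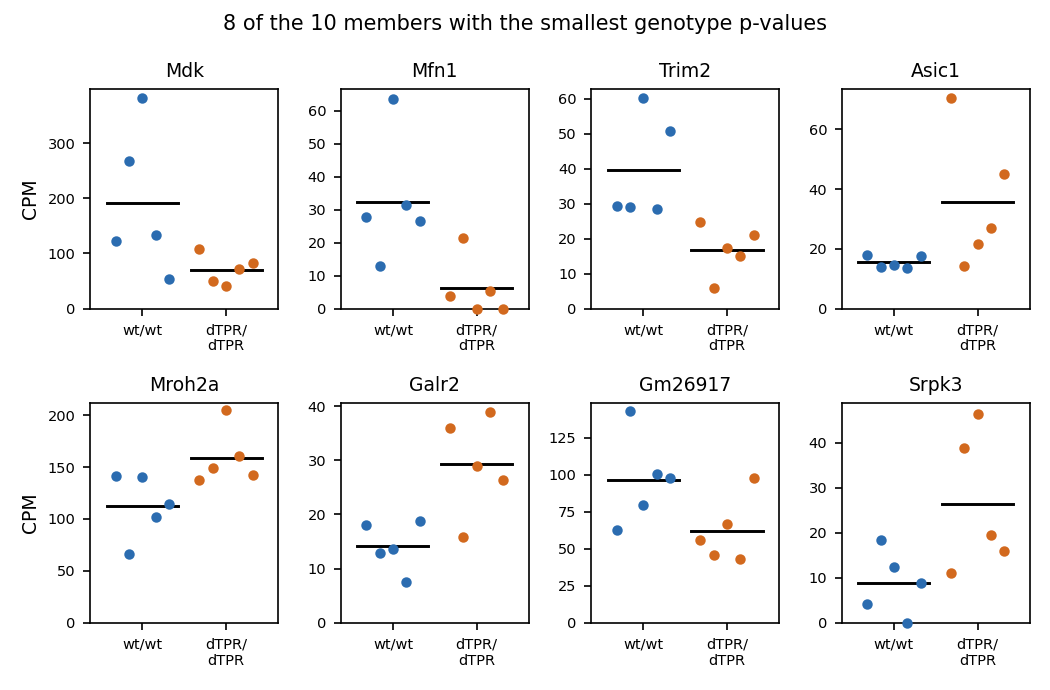
CPM (y axis, each panel from 0) of 8 of the 10 members with the smallest genotype p, wt/wt in blue and dTPR/dTPR in orange, 1 point per library and black lines for group means. The highest Mdk points are wild-type animals 3 and 2 (382 and 269 CPM), and Mfn1 has 2 dTPR/dTPR libraries at 0.

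The most counted members gave small fold changes. Klhl34 had means of 2476 ± 1002 and 2660 ± 1005 CPM in wild type and dTPR/dTPR (SD, n = 5 each), Hipk4 1706 ± 295 and 1602 ± 495, Gm14597 1527 ± 271 and 1679 ± 689, and Vsig2 430 ± 198 and 568 ± 300. Their log2 fold changes ran from -0.07 to 0.43 with SE from 0.20 to 0.56. The value of 0.43 for Vsig2 was 0.71 without dTPR/dTPR animal 2, 0.67 without wild-type animal 4, 0.25 without wild-type animal 3 and 0.22 without dTPR/dTPR animal 3, none of them with an adjusted p under 0.05 by edgeR. The 10 mitochondrial members together held 0.716% ± 0.123 of library counts in wild type and 0.598% ± 0.093 in dTPR/dTPR (SD, n = 5 each), and the 460 nuclear members held 1.98% ± 0.183 and 1.97% ± 0.174. The ranges over the nuclear members, 1.80% to 2.26% in wild type and 1.67% to 2.11% in dTPR/dTPR, overlapped.

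Genes that act at the ends of transcripts were read from the IDs that face them. Of 54 cleavage, polyadenylation and termination factors in the list, 11 could be tested, and 4 of these had a positive log2 fold change beside 50.1% of all such genes. None was called among the 2010 opposite-strand genes tested (0% called, 2.79% at an unadjusted p under 0.05, none of the 11), and their median was -0.06 against 0.002 over all genes. Ssu72, a phosphatase of the RNA polymerase II tail, had 0.55 ± 0.36 (SE) and Ints11, the endonuclease of the Integrator complex, 0.43 ± 0.31. From 13 lists of cell type and region markers, 23 entries of 74 could be tested and 0 were called by edgeR, 3 at an unadjusted p under 0.05, with 11 positive. Those 3 were Penk (-1.80 ± 0.72, SE), the oligodendrocyte gene Bcas1 (0.62 ± 0.19) and the astrocyte gene Hes5 (-0.87 ± 0.28), named after their values were seen. The rest of the tested astrocyte genes, Slc1a2 (1.07 ± 0.51) and Aldh1l1 (0.20 ± 0.31), had positive log2 fold changes. All 4 striatal markers had negative log2 fold changes, with a median of -1.28.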

How the data were processed

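RNA from the cortex of 10 mice was sequenced single-end from libraries of the SENSE Total RNA-Seq kit, per the labels' protocols. The authors deposited raw read counts, 1 whole number per Ensembl gene ID and library. TopHat, HTSeq and DESeq2 and build GRCm38.p5 are named per the submitters' processing notes, and versions and the strand setting are not given in the sources used here. There were 0 rows that name no gene. IDs were matched to GENCODE M21 without their version numbers, 52403 found and 687 not. An ID was assigned to the opposite-strand gene that holds at least 90% of its opposed exon bases, which gave 8159 IDs, 7365 genes and 87.8% of counts.

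Genotypes were compared with edgeR 4.0.16 in R 4.3.3 (TMM factors, filterByExpr, robust quasi-likelihood F test, Benjamini-Hochberg over all features, threshold 0.05), checked on simulated counts. limma 3.58.1 and DESeq2 1.42.0 served as alternatives, as did other scalings, filters, age, animal number or striatal level in the model, and libraries left out. For correlations, CPM were put on the log2 scale after adding a prior count of 2. No molecular identifiers were used, so reads are not independent molecules and precision at 667751 to 927242 counts per library covers counting error only.

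Members, gene lists and tests were chosen with earlier results of these data known. Members named are Mdk and Mfn1, the 12 with the highest mean count, the 10 with the smallest p, the 5 highest and 5 lowest correlations at mean counts of 20 or more on both sides, the 3 shortest and 3 longest distances and those at the limits of the rule; others were picked after their values were seen. From the marker and 3′-end lists the rule takes the 2 smallest p-values each, and not all of these are named. A few items chosen in this way stayed in all fits but are not reported here. Last bases and signals come from GENCODE M21 transcript sequences. A search between the genes, planned with the rest, was left out because it needs the genome sequence, which was not used here.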

Additional observations from a re-analysis of the deposited data

Results flagged for a closer look

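Over the named members and the library shares of nuclear and mitochondrial members, 68 groups of 5 libraries were examined by Dixon's criterion. It marks a library that stands apart from its group. All 7 groups that had one were of named members, where chance gives about 1 in 20 groups (3.4 here). Some members, such as Krt20, were named for values that such a library shaped, so 3.4 is only a rough guide. In 4 of the 7 the library is dTPR/dTPR animal 2. It was low at Klhl34 (919 CPM) and Krt20 (10.04 CPM) and high at Mfn1 (21.5 CPM) and Cog8 (58.8 CPM). Snrnp35 was high in dTPR/dTPR animal 5 (79.3 CPM), Ppt2 was low in wild-type animal 5 (94.8 CPM) and Orc3 was high in wild-type animal 3 (151 CPM).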

How the results depend on the processing

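No member was called under any alternative except without a filter on low counts, where 1 was (Mdk, log2 fold change -1.42). Members at an unadjusted p under 0.05 numbered 4 of 282, beside 77 of all 3027 tested IDs. They numbered 7 of 470 at a mean count of 5 or more (all IDs 101 of 4343) and 13 of 470 with DESeq2 (279 of 14395, with IDs lower than any member among them). With the replicate block they were 2 of 282 (69 of 3027). With 1 library left out they ran from 3 to 11. They were 11 of 304 without wild-type animal 1 (all IDs 89 of 3233). Without dTPR/dTPR animal 5 they were 7 of 313 (92 of 3275), and without wild-type animal 4 they were 3 of 306 (107 of 3256). Animals of the same number did not deviate together (correlations from -0.092 to 0.124), and only animals 1 and 2 correlated best with their own number, so the numbers pair no samples. A minimum mean count of 10 left 285 of the 470 members. 1 pair was called under each alternative run for the pairs, and r of Pter with C1ql3 ranged from 0.827 to 0.942 over them. Of 248 log2 fold changes of 21 named members under alternatives other than a left-out library, 8 changed sign. With the striatal level in the model these were mt-Te (0.060), Klhl34 (-0.21), mt-Ta (-0.033) and Snord91a (0.096). Without wild-type animals 2 and 3 they were mt-Te (0.17), Klhl34 (-0.13) and Snord91a (0.0041), and with limma-voom Gm42741 (-0.0096). With 1 library left out, 6 of these 21 members changed sign, with ranges from -0.014 to 0.34 for Klhl34, from -0.22 to 0.083 for Hipk4, from -0.12 to 0.30 for Gm14597, from -0.041 to 0.14 for mt-Ta, from -0.12 to 0.13 for Gm42741 and from -0.18 to 0.049 for Snord91a. The correlation of Ppt2 with the ID facing Agpat1 ranged from -0.33 to 0.25 with 1 library left out. Without the 2 farthest libraries Tnfrsf12a gave -0.11 and Cog8 -0.15. The causes were not tested. Low counts kept 188 of the 470 members out of the main test. Among the 185 members with a mean count of 5 to 10, 381 of 1850 library values (20.6%) were 0. Poisson counting at the same means gives 4.71 such values (0.255%). What lies behind the difference was not tested.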
